A study of Mus musculus with 40 samples.

Results

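The genes described here are 35 mouse genes of fatty acid oxidation, together with targets of the peroxisome proliferator-activated receptors (PPARs). The list was drawn up by symbol and function, with earlier results of these data known, and its genes were looked up by gene ID in a table of 54331 genes. All 35 were found, and all 35 passed the minimum for testing, set at 10 or more in 4 or more libraries, which 21367 genes passed. The study sequenced cerebellar RNA of male C57BL6 mice in 40 libraries, from 4 genotypes (WT, INDY, CSB and DKO) fed either of 2 diets, standard (SD) or ketogenic (KD). The gene called INDY is Slc13a5, which imports citrate into cells, CSB is Ercc6, a protein of transcription-coupled DNA repair, and DKO carries both alterations. On the standard diet there were 4 libraries of WT, 6 of INDY, 6 of CSB and 4 of DKO, and on the ketogenic diet 4 of WT, 6 of INDY, 5 of CSB and 5 of DKO. Age, diet composition, time on the diet and the alleles are not given in the sources used here, nor is whether the libraries of a group came from separate animals, so the spread between them may be partly technical.

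Long-chain fatty acids are bound in the cell by proteins such as Fabp3 and activated to acyl-CoA by the Acsl enzymes. The carnitine shuttle then carries them into mitochondria: Cpt1a and Cpt2 transfer the acyl group to and from carnitine, and Slc25a20 moves acylcarnitine across the inner membrane. In the matrix, acyl-CoA dehydrogenases (Acadvl, Acadl, Acadm, Acads) take the first step of each cycle and pass electrons to Etfa, Etfb and Etfdh, while Hadha, Hadhb, Hadh, Echs1 and Acaa2 carry out the later steps. Ppara and Ppard are nuclear receptors that fatty acids activate. During fasting or a high-fat diet, Ppara raises the genes of this pathway in liver, and Pdk4, Angptl4, Plin2, Ucp2 and Acot1 are among its best known targets. Brain takes most of its energy from glucose and, on a ketogenic diet, from ketone bodies, and its fatty acid oxidation is ascribed largely to astrocytes.

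The values are estimated read counts normalised by the authors, so the read depth of each library is unknown, and their sums ran from 23736702 to 32247186. Slc13a5 was at 82.1 to 161 in the 19 WT and CSB libraries whereas INDY and DKO had 19 of 21 libraries at 0 and a highest value of 0.934. Ercc6 itself was lower in the CSB and DKO libraries but overlapped with the others, whereas Gm6768, a copy of Ncoa4, was at 929 to 1245 in all 20 CSB and DKO libraries and at 0 in all 19 WT and INDY libraries other than the library labelled WT KD 25. That library had Gm6768 at 1041 and Ercc6 at 633, which goes against its label. All 9 granule cell and all 8 Purkinje cell markers reached 10 in every library. The library labelled DKO SD 1 stood apart, with a granule cell level (the mean log2(value + 1) over the list) of 7.89 against at least 10.85 in all others, and a forebrain level of 9.91. Altogether 12 libraries had a forebrain level above 6.5: 3 of WT KD, 2 each of INDY SD, INDY KD, CSB KD and DKO SD, 1 of DKO KD and 0 of WT SD and CSB SD. The liver level ran from 1.22 to 8.94 (CSB SD 6), and the library labelled WT SD 41 had an adipocyte level of 6.40, against 0.658 to 2.79 in the other 39. In bulk tissue fewer cells of a type and less RNA per cell cannot be told apart.

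The pathway was expressed throughout in the cerebellum, at levels per kb of exon that differed 79.5-fold between its members. Exon length here is the union of all annotated exons of a gene, which can exceed the length of its transcripts. For Hadhb it was 6595 bases, with 2048 in the longest coding transcript, and for Fabp3 both were 823. The order and the size of these levels therefore depend in part on the annotation. Per kb of exon, Acsl3, an acyl-CoA synthetase, had the highest level at 1151 ± 124 (SD, n = 40), followed by Fabp3, a fatty acid binding protein, at 901 ± 129. Acsl6, the synthetase known for handling docosahexaenoic acid in neurons, came next at 769 ± 71.9. Acsl3 and Fabp3 differed by more than the SD of either, whereas Fabp3 and Acsl6 differed by about the SD of Fabp3. Hadhb and Hadha, the subunits of the mitochondrial trifunctional protein, stood at 475 ± 55.5 and 240 ± 22.0 per kb. The 3 electron transfer genes ranged from 122 (Etfdh) to 418 (Etfb), and the 12 mitochondrial enzymes from 53.8 (Acads, the short-chain dehydrogenase) to 475. Within the carnitine shuttle, Cpt1c, the neuronal form, stood at 158 ± 25.4 per kb, Cpt1a at 123 ± 13.4, Cpt2 at 95.6 ± 14.7 and Slc25a20 at 65.2 ± 5.003. Acaa1a, the peroxisomal thiolase, was at 187 ± 15.7 and Ehhadh, the peroxisomal bifunctional enzyme, at 35.7 ± 5.91. The lowest 4 members were the receptors Ppard (21.4 ± 4.38) and Ppara (19.6 ± 4.94), Angptl4, an inhibitor of lipoprotein lipase (14.6 ± 5.46), and Cd36, a fatty acid translocase (14.5 ± 16.3). Neighbours in this order differed by less than the SD of either, apart from Ppara and Angptl4, which differed by about 1 SD.

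**Figure D1:**
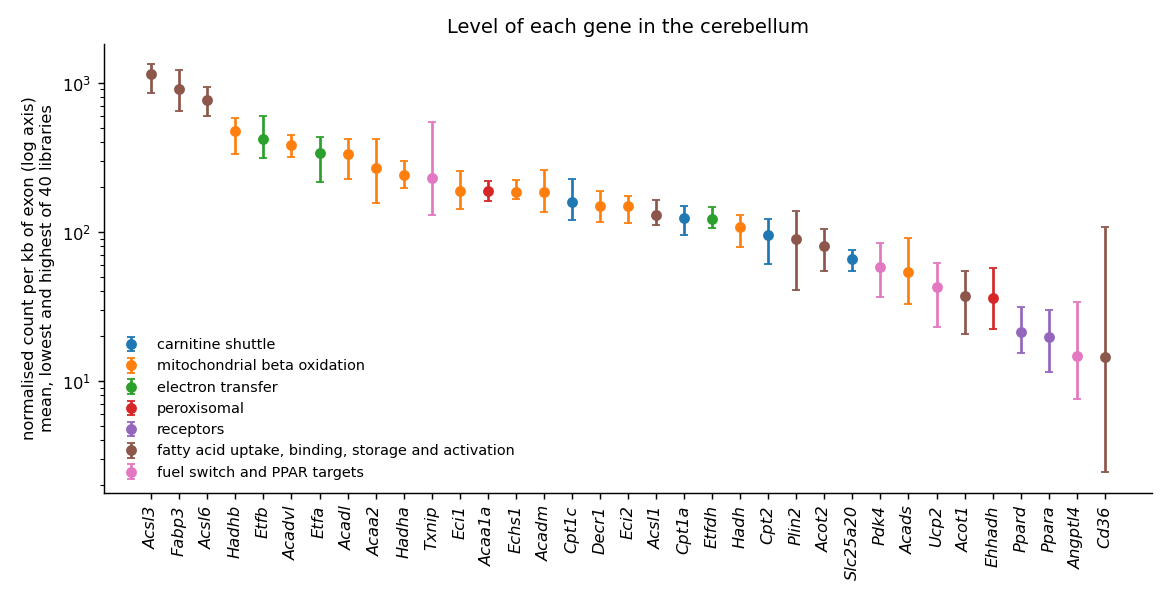
Level of each of the 35 genes as normalised count per kb of exon (union of all annotated exons) on a log axis. Genes are ordered from the highest to the lowest mean over 40 libraries. The bar runs from the lowest to the highest library and the colour gives the role. Acsl3, Fabp3 and Acsl6 lead with 1151, 901 and 769 per kb, and Cd36 at 14.5 has the widest bar.

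Promoter sequence was available for 32 of the 35 members, in 35 windows from 250 bases before to 50 bases after an annotated start (RefSeq, build GRCm38.p6). Acaa2, Angptl4 and Decr1 had no window and were not searched. PPARs bind with their partner RXR to a direct repeat of a half-site with 1 base between. Searched on both strands, the repeat AGGTCANAGGTCA was in 0 of the 35 windows and in 0.0396% of all 32851 windows of the same length. A looser form, AGGNCANAGGNCA, was also in 0 of the 35 and in 0.381% of all. At such low shares a set of 35 windows would rarely hold a match, so these counts of 0 say little. Sequence beyond the windows was not searched. The single half-site AGGTCA, which the repeats contain, was in 8 members (Acadm, Acadvl, Acsl6, Cd36, Cpt1a, Cpt1c, Echs1 and Plin2), or 22.9% of the windows against 16.3% of all. The matches of the 3 classical target genes among them are shown, 30 bases each, with the half-site in capitals as it reads on the gene's strand. Plin2 is at chr4:86670260-86670289 (minus strand), Cd36 at chr5:17836107-17836136 (minus strand) and Cpt1a at chr19:3323195-3323224 (plus strand).
Plin2: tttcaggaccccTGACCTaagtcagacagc
Cd36: ctctgcactttaTGACCTgagattttcagg
Cpt1a: cagtttccttacTGACCTcctccccgcagc

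Txnip, a thioredoxin-binding protein that lowers glucose uptake, is known as a target of the glucose-sensing factor pair ChREBP and MLX, which bind paired E boxes. The carbohydrate response element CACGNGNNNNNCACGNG, searched on both strands, was in Txnip alone among the members and in 0.0487% of all windows. It covered bases -85 to -69, counted back from the start as -1. The 250 bases before the start of Txnip, chr3:96557707-96557956 (GRCm38.p6, plus strand), are shown because Txnip was among the 3 most variable members, with the element in capitals.
Txnip: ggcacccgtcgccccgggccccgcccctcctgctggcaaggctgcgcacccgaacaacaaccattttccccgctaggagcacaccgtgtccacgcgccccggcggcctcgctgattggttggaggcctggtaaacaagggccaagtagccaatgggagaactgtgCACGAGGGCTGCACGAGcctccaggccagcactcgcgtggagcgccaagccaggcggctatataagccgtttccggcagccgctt

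The ketogenic diet was compared with the standard diet to see whether a fat-rich diet moved this pathway in the cerebellum. Over all genotypes, 0 of the 35 genes passed the test (limma, adjusted p under 0.05), beside 0.0% of the 21367 genes tested. The median difference of the members was 0.01 on the log2(value + 1) scale, as against 0.01 over all tested genes, and 18 of 35 lay above 0, with 53.7% of all genes. At an unadjusted p under 0.05, 1 member (Ucp2) was higher on KD, or 3.16% of all genes in either direction. The 95% interval of this average over the genotypes lay within ±0.5 log2 for 33 of 35 members, and within ±1 for all 35. The intervals treat the libraries as independent and may be too narrow if some share an animal. The 12 mitochondrial enzymes stood between -0.04 (Hadha) and 0.07 (Acadm), with bounds no farther than -0.20 and 0.22. The exceptions to ±0.5 were Angptl4, with 0.27 (interval -0.02 to 0.57), and Cd36, with -0.23 (-0.80 to 0.34). Within WT, INDY, CSB and DKO taken singly, the interval lay within ±0.5 for 23, 29, 30 and 25 of the 35 members.

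Ucp2, a mitochondrial inner-membrane carrier, had the smallest p over all genotypes. Its values on SD were 169, 210, 320 and 351 in WT, 161 to 376 (median 257) in INDY, 279 to 384 (median 331) in CSB and 173, 205, 252 and 261 in DKO. On KD they were 172, 238, 300 and 416 in WT, 218 to 431 (median 300) in INDY, 276, 282, 342, 358 and 411 in CSB, and 248, 336, 343, 386 and 390 in DKO. The diets overlapped in each genotype, and only in DKO was most of the KD group above the SD group. The difference was 0.27 ± 0.11 (SE) over all genotypes (unadjusted p = 0.0194, limma adjusted p = 0.9997), and 0.61 ± 0.23 in DKO (limma, adjusted p = 0.587). In WT, INDY and CSB it was 0.09, 0.35 and 0.03. Without the 12 libraries with a forebrain level above 6.5 the difference over all genotypes was 0.03, and with the forebrain, liver and choroid plexus levels as covariates it was 0.45 (limma adjusted p = 0.352).

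Within WT, Angptl4 had the largest difference of the 35 genes. It was 34.0, 36.4, 40.5 and 55.5 on SD and 56.5, 62.8, 78.7 and 96.6 on KD, so that every KD library lay above every SD library, although the lowest of them, the library labelled WT KD 25, lay close to the highest SD library. The difference was 0.80 ± 0.32 or 1.75-fold, with an interval of 0.16 to 1.45 and a limma adjusted p of 0.305. Without the library labelled WT KD 25 it was 0.92 (adjusted p = 0.628). In the other genotypes it was 0.44 (INDY), -0.12 (CSB) and -0.04 (DKO), with overlapping groups. Together 5 members did not overlap between the diets in WT, all higher on KD (Angptl4, Etfb, Cpt1c, Acsl3 and Txnip), beside 9.81% of all tested genes.

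Cpt1c, which binds malonyl-CoA in neurons but has little transferase activity, was at 674, 712, 781 and 852 on SD and 886, 918, 977 and 1145 on KD in WT. The difference of 0.38 ± 0.15 had the smallest p of the members in WT (unadjusted p = 0.0141, limma adjusted p = 0.302), and was 0.30 without the library labelled WT KD 25. The forebrain level also differed between the diets in WT, above 6.5 in 3 of the 4 KD libraries and 0 of the 4 SD libraries. Over all groups Cpt1c had a median of 1016 (883 to 1267) in the 12 libraries with that level and of 826 (674 to 1031) in the other 28. With the forebrain, liver and choroid plexus levels as covariates the WT difference of Cpt1c was -0.02. Diet and forebrain level cannot be told apart in these WT libraries, and the part of forebrain RNA in this difference was not tested. Acsl3 was at 4100, 4306, 4674 and 4795 on SD and 4879, 5337, 5379 and 5619 on KD, a difference of 0.25 ± 0.11 (limma adjusted p = 0.329), or 0.19 with the covariates. Of the 35 members 0 passed the test in WT and 3 had an unadjusted p under 0.05 (Cpt1c, Angptl4 and Acsl3, all higher), beside 0.0% and 13.4% of all tested genes. The median of the members was 0.04, with -0.01 over all genes, and 19 of 35 lay above 0, with 48.6% of all genes.

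Pdk4, the pyruvate dehydrogenase kinase that spares glucose and is a leading Ppara target in liver and muscle, gave no call in any genotype. It was at 157, 159, 170 and 244 on SD and 164, 195, 196 and 221 on KD in WT, groups that overlapped fully. Its differences were 0.10 in WT (-0.29 to 0.50), 0.01 in INDY (-0.31 to 0.33), -0.25 in CSB (-0.59 to 0.08) and 0.07 in DKO (-0.31 to 0.44). Cpt1a, the rate-limiting step of the shuttle, differed by -0.14 in WT, 0.10 in INDY, -0.19 in CSB and 0.02 in DKO, and no bound of these intervals went beyond -0.38 or 0.28. Plin2, which coats lipid droplets, was at 255, 268, 275 and 276 on SD and 226, 264, 275 and 397 on KD in WT, and its differences were 0.08, 0.01, 0.03 and 0.18 in WT, INDY, CSB and DKO. Acot1, a cytosolic acyl-CoA thioesterase, differed by 0.41 in WT (-0.03 to 0.85), -0.02 in INDY, 0.05 in CSB and -0.08 in DKO. All of these intervals include 0, and the wide ones do not exclude a change of 1.5-fold.

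In INDY, 0 members passed the test and 0 had an unadjusted p under 0.05, beside 0.0% and 4.63% of all tested genes; the smallest p was that of Hadhb, at -0.20 ± 0.10 (limma adjusted p = 0.981). Of the 35 members 15 lay above 0 in INDY and 16 in CSB, with 49.9% and 49.7% of all genes. In CSB, 0 passed, with 0.0% of all genes, and 1 had an unadjusted p under 0.05, with 3.43% of all. This was Ppara, which was at 60.4 to 110 (median 79.2) on SD and at 44.3, 46.4, 50.1, 62.4 and 75.3 on KD, groups that overlapped in part. The difference was -0.57 ± 0.21, with an interval of -0.99 to -0.15 (limma adjusted p = 0.984). Ppara differed by -0.27 in WT, -0.05 in INDY and 0.06 in DKO.

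In DKO, 0 members passed the test, beside 0.00468% of all genes, and 2 had an unadjusted p under 0.05 (Ucp2 and Acadvl, both higher), with 8.11% of all. Of the 12 mitochondrial enzymes 11 had estimates above 0, and 26 of all 35 members, while 52.6% of all genes did. The median of the members was 0.07, with 0.01 over all genes. Acadvl, the very-long-chain dehydrogenase, was at 851, 969, 1037 and 1044 on SD and at 1045, 1078, 1081, 1144 and 1205 on KD, groups that nearly touched. It was the only member without overlap there (1.74% of all genes). Its difference was 0.19 ± 0.08 (limma adjusted p = 0.589), and 0.13 without the library labelled DKO SD 1, the lowest of the SD group.

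**Figure D2:**
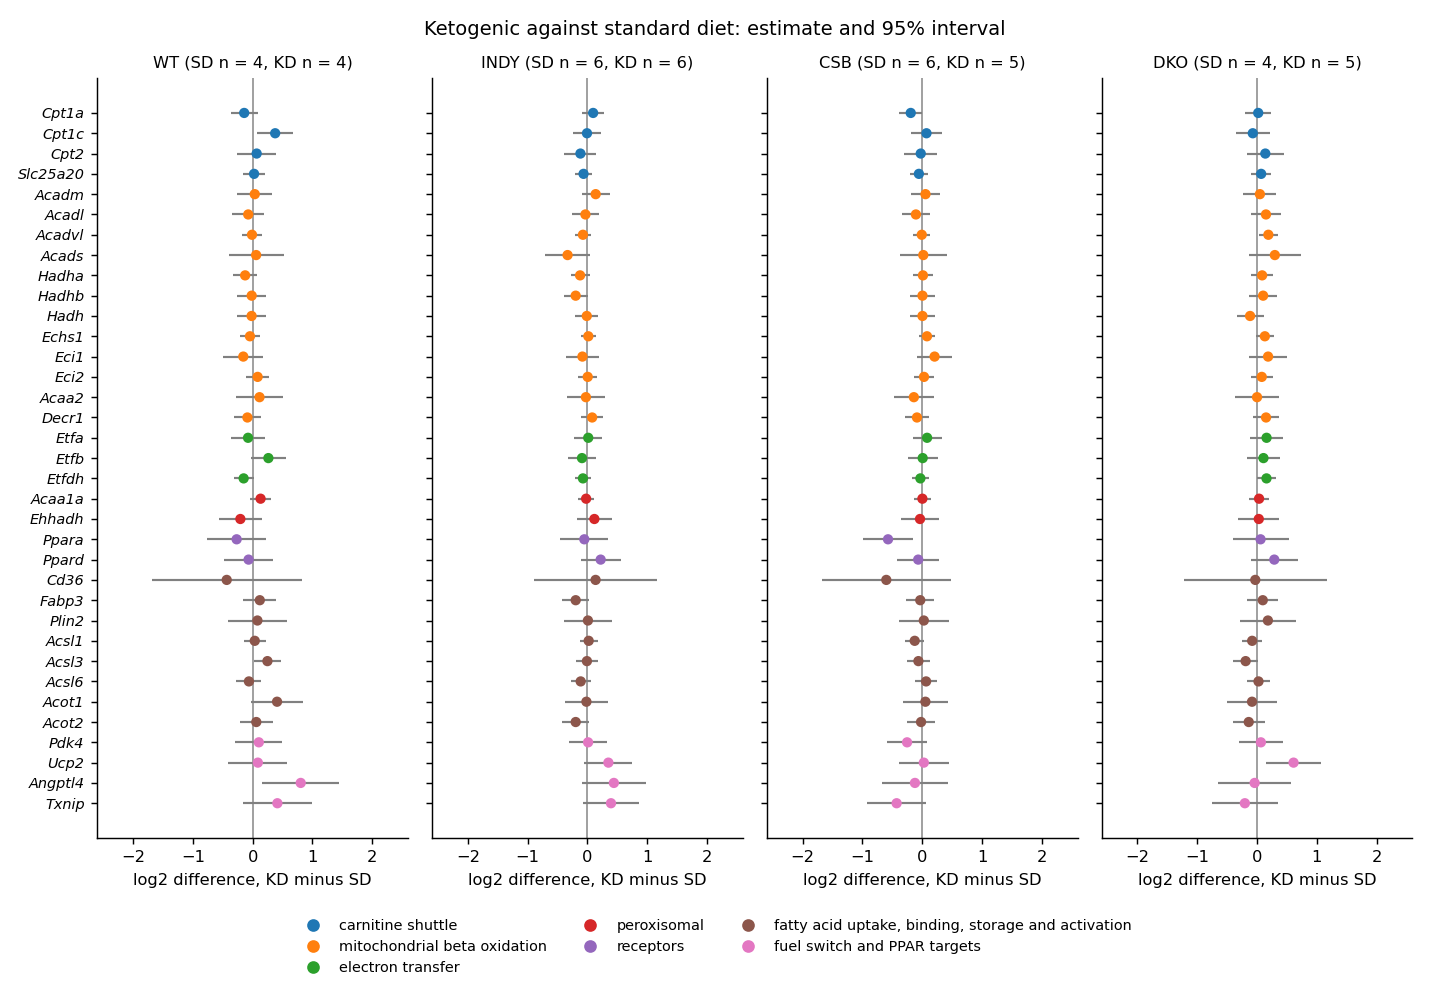
Log2 difference between the ketogenic and standard diets for the 35 genes in each genotype, with points coloured by role and bars for the 95% interval of the limma fit. Most intervals cross 0; Angptl4 in WT (0.80) and Ucp2 in DKO (0.61) are the highest estimates, and Cd36 has the widest intervals.

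Across the 4 genotypes, 4 members were higher on KD in each (Acadm, Eci2, Plin2 and Ucp2) and 0 were lower in each, while 6.97% of all tested genes had the same direction throughout. Of these 4 genes, 0 passed the limma test in any genotype. The diet response itself was compared between each mutant and WT, comparisons that share the WT libraries. For INDY, CSB and DKO 0 members passed, beside 0.014%, 0.0% and 0.0% of all genes, and 1, 3 and 3 had an unadjusted p under 0.05, beside 14.3%, 6.41% and 18.7%. With the forebrain, liver and choroid plexus levels as covariates those counts of members were 0, 0 and 0. The smallest p was that of Acsl3 in DKO, whose response was lower than in WT by -0.44 ± 0.15 (interval -0.74 to -0.14, limma adjusted p = 0.147). In DKO, Acsl3 was at 5067, 5397, 5452 and 5654 on SD and at 4129, 4292, 4969, 5088 and 5250 on KD, lower on KD in most libraries, where WT was higher. Over all groups Acsl3 had a median of 5415 in the 12 libraries with a forebrain level above 6.5. In the other 28 it was 4866. The part of forebrain RNA in this response was not tested. The largest differences from the WT response were those of Angptl4 in CSB, -0.93 (-1.78 to -0.07), Angptl4 in DKO, -0.84 (-1.74 to 0.05, limma adjusted p = 0.295), and Txnip in CSB, -0.84 (-1.61 to -0.08). Both CSB values missed the adjusted test (limma adjusted p = 0.760), and without CSB SD 6 the Txnip value was -0.62.

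**Figure D3:**
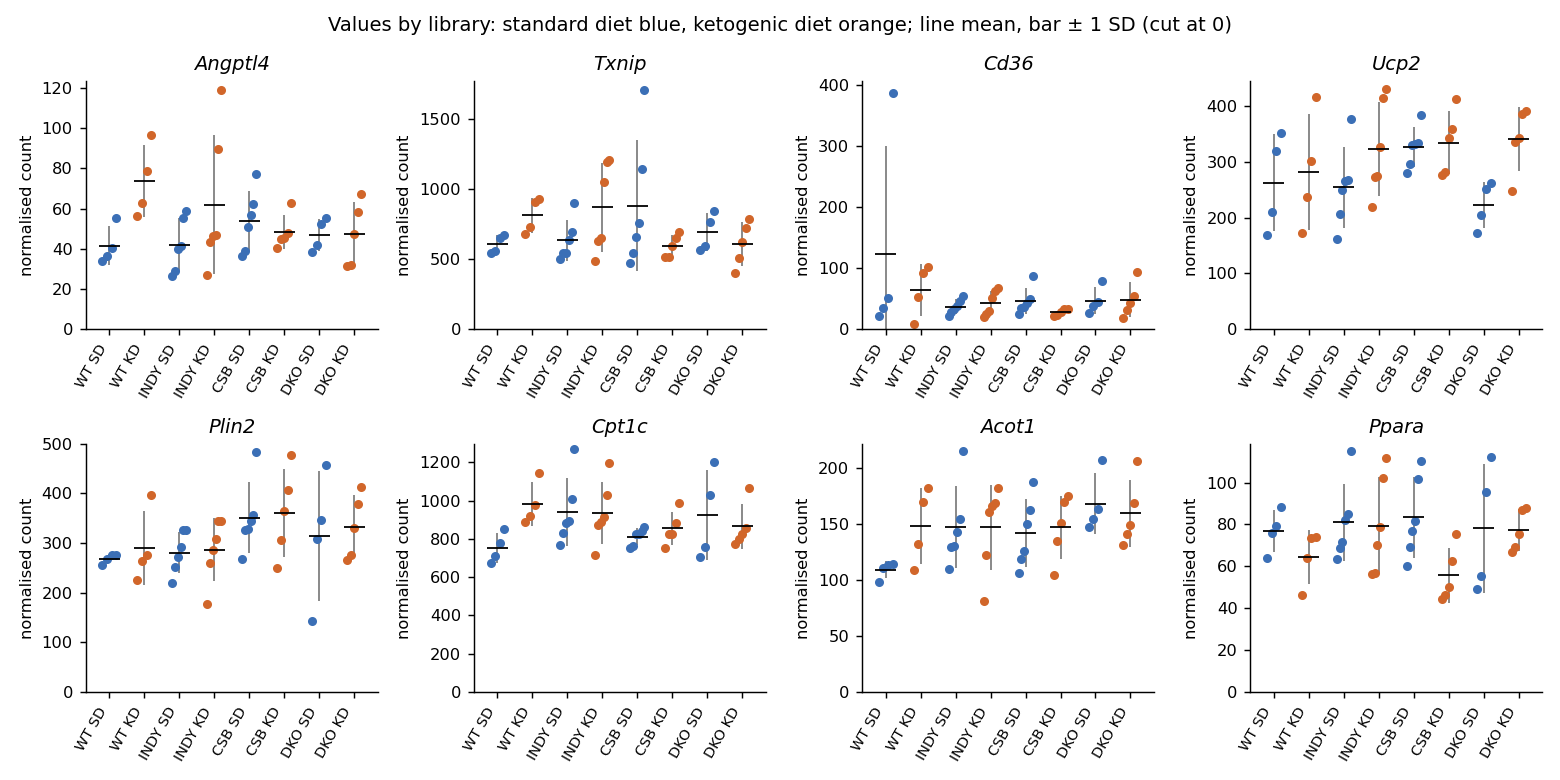
Normalised counts of 8 genes in every library by group, standard diet in blue and ketogenic diet in orange; the line is the group mean and the bar ±1 SD. Single libraries stand far above their group for Cd36 (386 in WT SD) and Txnip (1703 in CSB SD), and the WT diet groups do not overlap for Angptl4 and Cpt1c.

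The genotypes were compared next within each diet. On SD, 0 of the 35 members passed the test in INDY against WT, CSB against WT or DKO against WT, beside 0.00468%, 0.136% and 5.92% of all tested genes. At an unadjusted p under 0.05 there were 4, 1 and 4 members, all higher in the mutant, beside 14.3%, 7.88% and 31.5% of all genes. With the forebrain, liver and choroid plexus levels as covariates these counts of members were 0, 2 and 0. Without the library labelled WT SD 41 they were 1, 1 and 2. The 3 comparisons share the WT SD libraries. Estimates lay above 0 for 25, 28 and 20 of the 35 members, beside 51.2%, 51.3% and 50.2% of all genes. Acaa1a was lowest in WT SD, at 708, 728, 729 and 732, against 747 to 946 (median 836) in INDY, 719 to 965 (median 825) in CSB and 802, 846, 858 and 860 in DKO. WT was below all INDY and all DKO libraries but overlapped with CSB. Acaa1a was the 1 member without overlap between INDY and WT, beside 5.4% of all genes, and CSB and WT had 0, beside 3.56%. The differences were 0.21 ± 0.08, 0.21 ± 0.08 and 0.22 ± 0.08 (limma adjusted p = 0.319, 0.546 and 0.0837). On KD the same differences were 0.06, 0.08 and 0.12.

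Acot1 came closest to a call of any member in the 20 comparisons. On SD it was at 98.4, 111, 113 and 115 in WT and at 147, 155, 164 and 207 in DKO, groups that did not overlap. The difference was 0.61 ± 0.22 or 1.52-fold, with an interval of 0.17 to 1.05 (limma adjusted p = 0.0675). Without the library labelled DKO SD 1 it was 0.50 (adjusted p = 0.162), and with the forebrain, liver and choroid plexus levels as covariates 0.40 (adjusted p = 0.519). The groups did not overlap for 4 of the 35 members (Acot1, Etfb, Acsl3 and Acaa1a), beside 19.0% of all tested genes. The count of 1265 genes called in this comparison was 101 without the library labelled DKO SD 1 and 12 without the library labelled WT SD 41. For its neighbour Acot2, the mitochondrial thioesterase, the same difference was 0.17 (limma adjusted p = 0.392).

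Between the mutants on SD, DKO against CSB and DKO against INDY had 0 members called, beside 0.00468% and 0.0608% of all genes, and 1 and 0 with an unadjusted p under 0.05 (limma), beside 13.6% and 6.16%. Estimates lay above 0 for 13 and 16 members, beside 46.3% and 47.4% of all genes. Ucp2 was lower in DKO (173, 205, 252 and 261) than in CSB (279 to 384, median 331) without overlap, by -0.56 ± 0.22 (limma adjusted p = 0.2997). It was the 1 member without overlap there, with 2.88% of all genes, and DKO against INDY had 0, with 1.42%. On KD the difference of Ucp2 in the same pair was 0.03.

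On KD, 0 members passed in INDY, CSB or DKO against WT, beside 0.00936%, 0.00468% and 0.00936% of all genes, and 0, 1 and 4 had an unadjusted p under 0.05, beside 6.59%, 8.23% and 6.39%. For INDY and CSB, 23 and 21 members lay above 0, beside 49.2% and 51.0% of all genes, and 0 had groups without overlap, beside 0.871% and 2.81%. Etfdh, which passes electrons from the flavoprotein to ubiquinone, had the smallest p. It was at 797, 840, 846 and 872 in WT and at 913, 938, 994, 1014 and 1107 in DKO, without overlap (2.21% of all genes). Its difference was 0.24 ± 0.08, or 1.18-fold (interval 0.08 to 0.40, limma adjusted p = 0.651). Without the library labelled WT KD 25, the lowest of the WT group, it was 0.22, and with the forebrain, liver and choroid plexus levels as covariates 0.14. The other 3 with an unadjusted p under 0.05 were Decr1, an enzyme for unsaturated fatty acids (0.23), Acadvl (0.17) and Angptl4 (-0.66). Of the 35 members 28 had estimates above 0 there, with 52.1% of all genes, and their median was 0.14, with 0.01 over all genes. Without the library labelled WT KD 25, the members with an unadjusted p under 0.05 numbered 0, 1 and 2 in INDY, CSB and DKO. The 1 in CSB was then lower, whereas with that library it was higher, and 1 of the 2 in DKO was higher. With the covariates the counts were 0, 0 and 1, the last lower.

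DKO against INDY on KD gave 0 calls, beside 0.0983% of all genes, and 4 members with an unadjusted p under 0.05 (Fabp3, Etfdh, Acadvl and Acads, all higher in DKO), with 8.34% of all. Fabp3 was at 532 to 950 (median 612) in INDY KD and at 704, 709, 803, 998 and 1003 in DKO KD, overlapping groups, with a difference of 0.34 ± 0.12 (limma adjusted p = 0.462). In DKO against CSB on KD 0 members passed (0.0281% of all genes), and 1 had an unadjusted p under 0.05 (1.73% of all), which was Ppara, at 0.49 ± 0.22 higher in DKO.

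**Figure D4:**
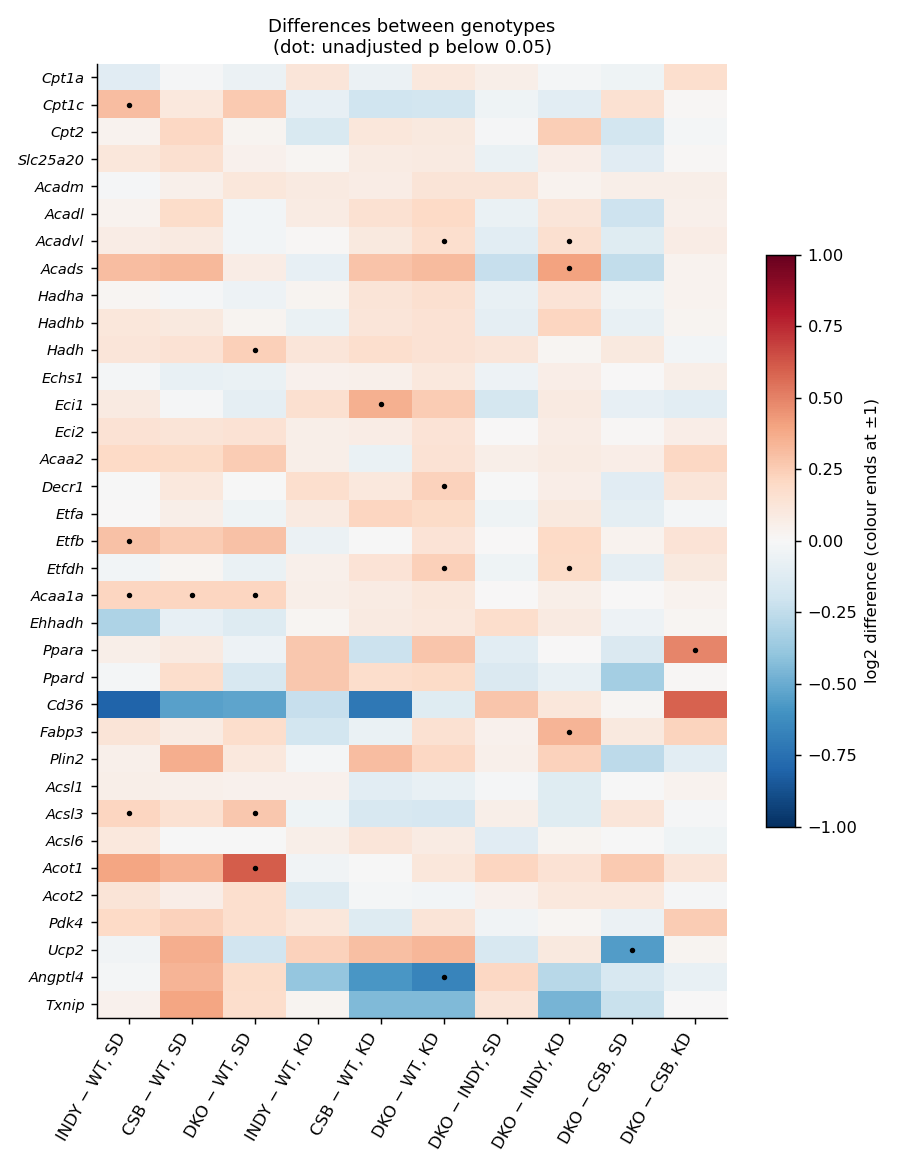
Log2 differences between genotypes for the 35 genes (down, by role) in 10 comparisons (across), red for higher and blue for lower in the first genotype; a dot marks an unadjusted limma p below 0.05. No member passed the adjusted test in these comparisons; the strongest blue is Cd36 in INDY against WT on SD (-0.80), and the strongest red is Acot1 in DKO against WT on SD (0.61).

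Averaged over both diets and both Slc13a5 states, the CSB genotype had 0 members called, beside 0.796% of all genes, and 4 with an unadjusted p under 0.05 (Acaa1a, Plin2, Hadh and Etfdh, all higher), with 18.8% of all. All 12 mitochondrial enzymes had estimates above 0, none above 0.19 (Acads), and 27 of 35 members did, with 52.1% of all genes. Of these members 5 were higher with the CSB genotype in each of the 4 separate pairs of groups (Acaa1a, Acadm, Eci2, Hadh and Plin2) and 0 were lower, while 26.0% of all genes had the same direction throughout. The library labelled WT KD 25, whose Gm6768 goes against its label, counts as WT here. Without it 1 member had an unadjusted limma p under 0.05 in the averaged comparison. That count was 2 with the forebrain, liver and choroid plexus levels as covariates and 8 without the library labelled DKO SD 1. In each of these fits 0 members passed the adjusted test, while 182, 170 and 249 of all tested genes did. The share of all genes with an unadjusted p under 0.05 is not given for these fits. The counts of 1, 2 and 8 members therefore have no background beside them.

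Plin2 had the largest of these averaged differences. It was higher by 0.36 in CSB against WT on SD, 0.31 on KD, 0.05 in DKO against INDY on SD and 0.23 on KD. In WT SD it was at 255, 268, 275 and 276 and in CSB SD at 267 to 483 (median 337), with 1 CSB library inside the WT range. The average was 0.24 ± 0.11 (interval 0.02 to 0.46, limma adjusted p = 0.232). Without the library labelled DKO SD 1, which had the lowest Plin2 of all (142), it was 0.32 (limma adjusted p = 0.0634). Without the 12 libraries with a forebrain level above 6.5 it was 0.41. That last setting was chosen after seeing the data and leaves 1 library in WT KD. Astrocyte markers moved with Plin2 across libraries (r = 0.644, and 0.429 without the 2 libraries farthest from the median). Their part in this difference was not tested.

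For the INDY genotype, averaged in the same way, 0 members passed (0.014% of all genes) and 0 had an unadjusted p under 0.05, with 9.38% of all. The 95% interval lay within ±0.5 for 34 of 35 members. Acaa1a, at 0.08 ± 0.04, had the smallest p (limma adjusted p = 0.511). In the 4 separate pairs, 3 members were higher throughout (Acaa1a, Acaa2 and Eci2) and 1 lower (Angptl4), beside 13.5% of all genes with 1 direction throughout.

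The median within-group SD of the members was 0.20 log2, and 0.32 over all tested genes; 18 members lay under 0.2, beside 28.8% of all genes, and 8 at 0.3 or above, beside 52.2%. Echs1, the enoyl-CoA hydratase, had the lowest SD at 0.10, and Slc25a20 at 0.11 varied less than all but 0.398% of genes of similar level. The 8 variable members were Cd36 (0.91), Angptl4 (0.46), Txnip (0.42), Ucp2 (0.35), Plin2 (0.35), Ppara (0.34), Acads (0.32) and Acot1 (0.31). Genes of low level vary more, so each member was also set beside genes of similar level. There the members lay near the middle: a median of 44.8% of such genes had a smaller SD, over 50% for 14 members and under 50% for 21. Among the variable members, 52.2% of such genes had a smaller SD than Angptl4 and 34.0% than Ppara, but 93.1% than Cd36 and 92.3% than Txnip.

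Cd36 varied most in WT, where 1 library decided its differences from WT SD. In WT SD it was at 22.1, 35.1, 50.5 and 386, the last in the library labelled WT SD 41. That library also had the highest level of adipocyte markers, with Lep at 138, Adipoq at 108, Plin1 at 60.1 and Cidec at 54.4, while in the other 3 WT SD libraries Lep was at 0, Adipoq at most at 1.99, Plin1 at most at 11.2 and Cidec at most at 4.16. In INDY against WT on SD the difference of Cd36 was -0.80 ± 0.57, and 0.06 without that library; in CSB and DKO against WT on SD it was -0.55 and -0.53, and 0.32 and 0.34 without it. On KD against SD in WT it was -0.43, and 0.43 without it. WT KD was also wide, at 8.75, 52.3, 92.2 and 102. Of the differences that do not use WT SD, KD against SD in CSB was -0.60 (-1.68 to 0.48), CSB against WT on KD -0.71 (-1.91 to 0.48) and DKO against CSB on KD 0.59 (-0.53 to 1.71).

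Txnip was highest in CSB SD 6 (1703) and CSB SD 8 (1143), in a group otherwise at 473 to 761. The liver level was 8.94 in CSB SD 6, the highest of all, and 1.964 in CSB SD 8. The other 2 libraries with a liver level above 8, INDY SD 10 (8.63) and INDY KD 22 (8.16), had Txnip at 542 and 1048, and the part of liver RNA in these values was not tested. In INDY KD, Txnip fell into 2 sets, 1048, 1195 and 1205 in one and 483, 632 and 654 in the other.

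Members that varied together were sought in the deviations of the 40 libraries from their group means, with permutations within groups (100000 draws, smallest possible p of 1e-05) and adjustment over 595 pairs. Of these, 110 pairs passed at an adjusted p under 0.05, 103 with a positive and 7 with a negative correlation. Correlation was common among all genes in these libraries: r was at least 0.5 for 81 member pairs (13.6%) and for 5.43% of the 228263661 pairs of tested genes, and at most -0.5 for 6 member pairs (1.01%) and 4.06% of all. Hadha and Hadhb, the subunits that assemble into 1 complex, had the highest correlation, with a Pearson r of 0.787 and a Spearman rho of 0.827 (permutation p = 1e-05 for both, adjusted p = 0.00085), and r was 0.792 without the 2 libraries farthest from the median. For Hadha, Hadhb ranked 2nd of 21366 genes by r. For Hadhb, however, Hadha ranked 166th. The next pairs were Acadl with Hadhb (r = 0.777, rho = 0.735, permutation adjusted p = 0.00085), and Acadl with Hadh (r = 0.769, rho = 0.774, permutation adjusted p = 0.00132). Angptl4 and Txnip, the most variable pair after Cd36, moved together (r = 0.687, rho = 0.634, permutation p = 4e-05 and 0.00038, adjusted p = 0.00183 and 0.00595), with r = 0.620 without the 2 farthest libraries.

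All 7 negative pairs involved Cpt1c. The strongest was with Etfa (r = -0.698, rho = -0.631, permutation p = 0.00012 and 0.00048, adjusted p = 0.00325 and 0.00697; r = -0.613 without the 2 farthest libraries). The others were Plin2, Ucp2, Hadhb, Decr1, Hadha and Etfdh. Cpt1c was also higher by median in the 12 forebrain-rich libraries than in the others (1016 and 826), and the part of forebrain RNA in these correlations was not tested.

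**Figure D5:**
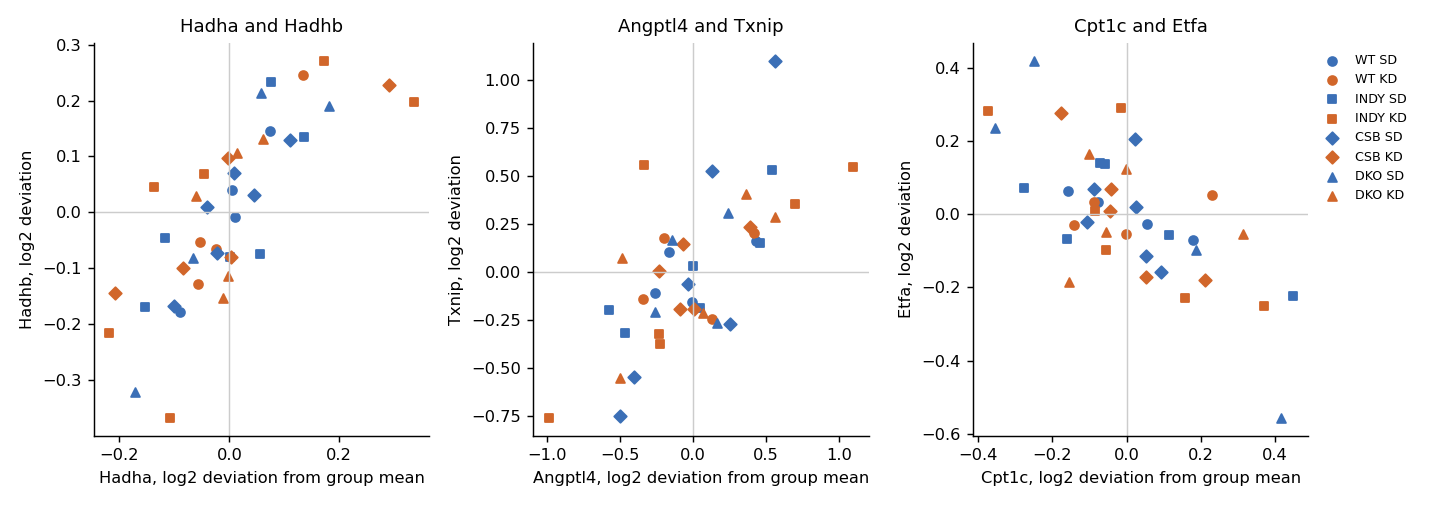
Deviations from the group mean on the log2 scale for 3 pairs of genes in the 40 libraries, with diet as colour and genotype as marker shape. Hadha and Hadhb rise together (r = 0.787), as do Angptl4 and Txnip (r = 0.687), while Etfa is low where Cpt1c is high (r = -0.698).

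Hadha and Hadhb lie head to head on chromosome 5, with the RefSeq starts used for the promoter windows 273 bases apart. The annotated genes (GENCODE M21, GRCm38) reach farther and leave only 85 bases between them. This stretch, chr5:30155163-30155247 (GRCm38.p6, plus strand), is shown because the pair had the highest correlation of all members. The capitals mark both of its GC boxes, the 6 letters GGGCGG, a motif found on either strand in 28 of the 35 member windows and in 35.7% of all windows.
Hadha and Hadhb: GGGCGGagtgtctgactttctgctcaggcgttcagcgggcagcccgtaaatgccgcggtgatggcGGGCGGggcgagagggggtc

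The members were also set against 6 lists of cell type markers, 210 relations in all, of which 32 passed at a permutation adjusted p under 0.05. The counts of members given for each list are of relations that passed by Pearson r. With astrocyte and Bergmann glia markers, Etfa (r = 0.760, rho = 0.697, permutation adjusted p = 0.00105 and 0.00367) and Ucp2 (r = 0.639, rho = 0.796, permutation adjusted p = 0.0007 and 0.00105) correlated positively, as did Plin2 (r = 0.644, rho = 0.426, permutation adjusted p = 0.0191 and 0.112), and Cpt1c negatively (r = -0.693, rho = -0.602, permutation adjusted p = 0.00452 and 0.0140). With oligodendrocyte markers 11 members correlated positively and 0 negatively, led by Acsl6 (r = 0.697, rho = 0.684), Cpt1a (r = 0.673, rho = 0.612), Hadhb (r = 0.671, rho = 0.687) and Cpt2 (r = 0.654, rho = 0.568), each with a permutation adjusted p of at most 0.00723. Without the 2 farthest libraries these 4 had r of 0.632, 0.579, 0.601 and 0.555. With microglia markers 5 members correlated positively, led by Pdk4 (r = 0.706, rho = 0.543, permutation adjusted p = 0.0015 and 0.0140; r = 0.569 without the 2 farthest libraries). Granule cell markers correlated negatively with 5 members, led by Cpt1c (r = -0.642, rho = -0.603, permutation adjusted p = 0.0049 and 0.00723) and Pdk4 (r = -0.537, rho = -0.581, permutation adjusted p = 0.00452 and 0.0111). Purkinje cell markers did so with 4, and 0 members correlated positively with either list. Many other genes did likewise: the share of all tested genes at least as far in the same direction was 3.57% to 11.7% for the 11 members with oligodendrocytes, 3.24% to 12.1% for the 5 with microglia, 3.29% to 15.3% for the 5 with granule cells and 2.17% to 13.7% for the 4 with Purkinje cells. For the 6 with astrocytes and Bergmann glia, which also include Acadl and Etfdh, it was 0.267% (Cpt1c) to 9.71% (Etfdh). Between these lay Etfa at 0.342%, Plin2 at 2.12%, Ucp2 at 2.27% and Acadl at 3.64%. Without the 2 farthest libraries r with this list was 0.614 for Etfa, 0.747 for Ucp2, 0.429 for Plin2 and -0.615 for Cpt1c. It was 0.540 for Acadl and 0.336 for Etfdh. With endothelium markers 1 member passed, Txnip (r = 0.478, rho = 0.496, permutation adjusted p = 0.0245 and 0.0315). Its r was 0.474 without the 2 farthest libraries, and 1.45% of all tested genes were at least as far in that direction.

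Another 72 genes of fatty acid metabolism were listed beside the 35, and 70 of them were tested. In KD against SD over all genotypes 0 of the 70 passed (limma), and 2 had an unadjusted p under 0.05, both lower, beside 3.16% of all tested genes. Calls were made in 1 of the 20 comparisons, DKO against WT on SD, where 2 of 70 rose and 1 fell, beside 5.92% of all genes. These calls were fragile: with each of the 8 WT SD and DKO SD libraries left out in turn, Rxrg missed the threshold in 5 fits and Fads2 and Ppargc1b in 7 each. Rxrg, a partner receptor of the PPARs, was at 21.2, 22.6, 33.0 and 37.9 in WT and at 55.5, 57.5, 65.0 and 819 in DKO, the last in the library labelled DKO SD 1; its difference was 2.00 ± 0.54 (limma adjusted p = 0.0380), and 1.06 without that library. Fads2, the delta-6 desaturase, rose by 0.45 ± 0.14 (limma adjusted p = 0.0494), from 2194 ± 284 to 3015 ± 454 (SD, n = 4 each). Ppargc1b, a PPAR coactivator, fell by 0.81 on the log2 scale (SE 0.25, limma adjusted p = 0.0493), from 459 ± 69.0 to 263 ± 51.1 (SD, n = 4 each).

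For 9 of the 35 members a stretch of at least 200 bases matched another gene's transcript at 95% identity or more, so reads could be shared there. Some stretches were short, such as 207 of 3950 bases between Acsl3 and Utp14b and 305 of 3988 between Ucp2 and Dnajb13. Utp14b had a mean value of 1129, beside 5014 for Acsl3. Acot6 matched Acot1 over 436 aligned bases (95.2%) and had a mean of 179, beside 146 for Acot1. Acot1 and Acot2, neighbours on chromosome 12 (84009490 to 84018371 and 83987861 to 83993873, plus strand, GRCm38), were identical at 96.2% of 1200 aligned bases, and Acaa1a and Acaa1b at 96.8% of 1416. Acaa1b had a mean value of 18.2, and Acaa1a 827. The processed pseudogene Gm13910 matched Hadhb at 99.8% but had a mean of 0.177, beside 3135 for Hadhb. Gm15441, antisense to Txnip, had a mean of 1.12, beside 719 for Txnip; the sources used here do not say whether counting used the strand.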

How the data were processed

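The authors deposited 1 table of normalised estimated counts (a signal, not whole counts) for 40 libraries. Per the submitters' processing notes Bowtie2, Salmon and DESeq2 were used with build mm9; versions and annotation are not given in the sources used here, and the library depth is unknown. Per the labels' protocols RNA was depleted of rRNA. Symbols came from GENCODE M21 (53444 of 54331 IDs with version, 54097 without).

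The members, gene lists and tests were chosen with earlier results of these data known. Values were taken as log2(value + 1), kept at 10 or more in at least 4 libraries, and fitted in limma 3.58.1 (R 4.3.3, trend and robust) over 8 groups. P-values were adjusted by Benjamini-Hochberg over 21367 genes within each of 20 comparisons, with 0.05 as threshold and 95% intervals. The text names the 3 members with the smallest p in a comparison and 8 fixed PPAR targets, plus members whose groups did not overlap, which were singled out after their values were seen, as were the Cd36, Txnip and Plin2 library values. Correlations used 100000 permutations within groups. Copies were aligned with minimap2 2.31-r1302. The fit was tested on simulated data. Alternatives were pseudocounts of 0.5 and 5, no filter, rescaling, other fits, marker levels as covariates and leaving out each library; 1 more, without 12 forebrain-rich libraries, was chosen after seeing the data.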

Additional observations from a re-analysis of the deposited data

Results flagged for a closer look

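In 280 sets of values (35 genes in 8 groups), 12 held a library far from the others of its group by Dixon's criterion, while chance alone gives about 1 in 20. Of these, 4 were in WT KD 28, the 1 library of its group without a forebrain level above 6.5. It had Acadm at 530.8 (others 753 to 780) and Acsl1 at 1235 (others 1404 to 1425), both low. It had Acadvl at 1167 (others 919 to 945) and Hadha at 2137 (others 1873 to 1914), both high. In DKO SD, Cpt2 was at 281.2 in library 34 (others 196 to 205), Eci1 at 476.2 in library 36 (others 326 to 341) and Ehhadh at 80.14 in library 35 (others 114 to 118). Acaa1a was at 708.1 in WT SD 42 (others 728 to 732), and Decr1 at 551.8 in WT KD 7 (others 518 to 520). Etfb was at 598.3 in CSB SD 26 (others 449 to 475) and at 654.3 in DKO KD 2 (others 494 to 529). Acsl3 was at 3730 in INDY KD 20, where the others were at 4973 to 5724.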

How the results depend on the processing

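The count of members called was 0 in 469 of 470 values over 20 comparisons and their alternatives. The other was 1 (Plin2, CSB genotype averaged over diets, without the 12 forebrain-rich libraries, a choice made after seeing the data that leaves 1 library in WT KD, assumed to vary like the others). The median of the members moved by less than 0.1 throughout. Some differences turned sign, and the cause was not tested. The larger ones were Cpt1c in WT (0.38), Acot1 in WT (0.41) and the diet response of Cpt1c in INDY (-0.38) and DKO (-0.45). With the marker levels as covariates these were, for KD against SD, Pdk4 over all genotypes (0.03), Cpt1c in WT (-0.02) and, in DKO, Angptl4 (0.17), Cpt1a (-0.02), Plin2 (-0.04), Acot1 (0.02) and Cd36 (0.34), and, for the diet response against WT, Cpt1c in INDY (0.04) and DKO (0.16). Without the 12 libraries they were Plin2 (-0.07) and Txnip (-0.06) over all genotypes, Pdk4 (-0.13), Plin2 (-0.25), Ucp2 (-0.55) and Acot1 (-0.0008) in WT, Pdk4 (-0.09) and Cd36 (-0.29) in INDY, and Plin2 (-0.20), Acot1 (0.02) and Cd36 (0.32) in DKO. Between genotypes they were Acsl6 (0.06) and Acaa1a (-0.01) in DKO against INDY on SD, Acaa1a in CSB against WT on KD (-0.15) and Acadvl in DKO against WT on KD (-0.06).

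Leaving out 1 library turned the sign of 23 named differences. For KD against SD the ranges were -0.04 to 0.02 (Pdk4) and -0.01 to 0.13 (Plin2) over all genotypes. In WT they were -0.08 to 0.19 (Plin2), -0.12 to 0.30 (Ucp2) and -0.92 to 0.43 (Cd36), and in INDY -0.07 to 0.15 (Pdk4), -0.06 to 0.14 (Plin2), -0.09 to 0.14 (Acot1) and -0.02 to 0.31 (Cd36). In CSB they were -0.08 to 0.15 (Plin2), -0.05 to 0.09 (Ucp2) and -0.02 to 0.17 (Acot1). In DKO they were -0.004 to 0.14 (Pdk4), -0.18 to 0.09 (Angptl4), -0.03 to 0.06 (Cpt1a), -0.16 to 0.40 (Plin2), -0.18 to 0.02 (Acot1) and -0.31 to 0.25 (Cd36). On SD, Cd36 against WT ran from -1.29 to 0.06 (INDY), -1.03 to 0.32 (CSB) and -1.02 to 0.34 (DKO), and in DKO against INDY Plin2 from -0.17 to 0.39 and Acaa1a from -0.03 to 0.04. Rxrg, Fads2 and Ppargc1b missed the threshold without a filter on low values (adjusted p = 0.0562, 0.0797 and 0.079), and with the covariates, where their differences were 1.21, 0.23 and -0.44. With 1 library left out, Rxrg (1.06 to 2.35) missed it without WT SD 39, 41 or 42 or DKO SD 1 or 35, and Fads2 (0.38 to 0.57) and Ppargc1b (-0.93 to -0.73) missed it with any library other than DKO SD 36 left out.

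The count of all genes called in DKO against WT on SD was 1265, 69 without the filter, 694 in a fit of those groups alone, 7 with the covariates and 12 to 1826 with 1 library left out. For the CSB average it was 170, 727 without the 12 libraries and 120 to 1378 with 1 library left out, and for KD against SD in WT 0, 50 and 0 to 17. The correlation of Etfa with astrocyte markers was 0.494 without the 12 libraries. No paired analysis was possible because the groups share no replicate numbers. Depth is unknown, so no counting error can be given.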
